A study of Homo sapiens with 4 samples.

Results

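BAF complexes are ATP-dependent chromatin remodelers assembled from families of related subunits, and 10 subunit genes that figure in the exchange between their neural progenitor and neuronal forms are described here. The members were the progenitor subunits ACTL6A (BAF53A), SS18, PHF10 (BAF45A), and DPF2 (BAF45D), their neuronal alternatives ACTL6B (BAF53B), SS18L1 (CREST), DPF1 (BAF45B), and DPF3 (BAF45C), and the shared core subunits SMARCA4 (BRG1) and SMARCC1 (BAF155). They were chosen by symbol and not by a cutoff on their values, although earlier results of these data were known. All 10 were found among the 58243 genes of the files. DPF2 is widely expressed, and it is placed with PHF10 here because neither is a neuronal form.

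Gene expression was measured by RNA-seq of 293T cells, a human embryonic kidney line that carries adenovirus and SV40 sequences. By the methods of the study, the libraries were made from total RNA with a kit for mRNA-seq. One condition received a control RNA, and the other 3 a mimic of miR-1, miR-122, or miR-124, that is, a synthetic RNA that acts as the mature miRNA. Each of the 4 conditions has 1 library, collected at 48 h according to the labels, while the methods of the study give a shorter interval. The 3 comparisons with control RNA share the same control library and are thus not independent.

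As neural progenitors leave the cell cycle, ACTL6A, SS18, and PHF10 give way to ACTL6B, SS18L1, and DPF1 or DPF3 in the BAF complex. In that setting miR-124, a neuronal miRNA, and miR-9* are known to repress ACTL6A through its 3′ untranslated region (UTR), and REST, a repressor of neuronal genes, keeps the genes of both miRNAs silent outside neurons. miR-1 is a miRNA of muscle and miR-122 one of liver, and neither is known for a part in this exchange.

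A miRNA recognizes its targets mainly through its seed, bases 2 to 8 from its 5′ end, in capitals below. The mature sequences from RefSeq (GRCh38.p14) are shown because the seed sets which words were searched in the members. hsa-miR-1-3p lies at chr18:21829015-21829036 on the minus strand in MIR1-2, and hsa-miR-122-5p at chr18:58451088-58451109 on the plus strand in MIR122.
hsa-miR-1-3p: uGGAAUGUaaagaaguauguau
hsa-miR-122-5p: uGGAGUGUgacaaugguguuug
The seeds are not the same, so each miRNA was searched with its own word.

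On the mRNA strand, miR-1 was searched by the word ACATTCCA. The word of miR-122 was ACACTCCA, and that of miR-124 was GTGCCTTA. All 8 letters are an 8mer, the first 7 a 7mer-m8, the last 7 a 7mer-A1, and the middle 6 a 6mer. A match is a description of the sequence, and its absence says only that these letters are not in the window searched. Each member was searched in the longest 3′ UTR annotated by GENCODE release 44 on GRCh38.

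Repression of ACTL6A by miR-124 is known from the setting described above, and the species and UTR sequence behind it were not checked here. The human ACTL6A 3′ UTR searched here is on the plus strand of chr3. It has 397 bases and held no 8mer, 7mer, or 6mer of miR-124. The longest stretch of the miR-124 word in it was 5 letters, found at bases 36, 336, and 351, and the one at base 336 (chr3:179588334-179588359), which lies within the 6mer word, is in capitals in the first sequence. A 7mer-A1 of miR-1 began at base 383 (chr3:179588377-179588402), in capitals in the second.
ACTL6A, 5 letters of the miR-124 word: agtaaaagttacTGCCTatgcttttt
ACTL6A, miR-1 7mer-A1: ttaaataaaaattagcCATTCCAgaa
None of the 14 annotated ACTL6A transcripts held a 7mer or 8mer of miR-124 at any place, and 8 held a 6mer. In the transcript with the 397-base UTR, that 6mer began at base 608, upstream of the UTR, which starts at base 1458.

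Of the 10 members, 3 had a 7mer of miR-124 (PHF10, DPF3, and SMARCC1) and none an 8mer. In comparison, 28.04% of the 11221 genes tested that have a 3′ UTR held a 7mer or 8mer of miR-124. Here and below, these shares cover tested genes only, whereas ACTL6B and DPF3 among the members were not tested. The shares were not matched for UTR length, whose median over the genes tested was 1610 bases. The PHF10 7mer-m8 (chr6:169709792-169709817, minus strand, base 414) is shown because PHF10 had the lowest ratio of any tested member with miR-124. SMARCC1 held a 7mer-A1 at base 1314 and a 7mer-m8 at base 1834, and the latter is shown (chr3:47586366-47586391, minus strand).
PHF10, miR-124 7mer-m8: agttgcattttttttaGTGCCTTtca
SMARCC1, miR-124 7mer-m8: ctccagaaagaccccaGTGCCTTttg
The PHF10 site lies in a UTR of 3187 bases, whereas the UTR of its representative transcript has 101 bases and no site of any of the 3 miRNAs.

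For miR-1, 5 members had a 7mer or 8mer, namely ACTL6A, SS18, DPF2, DPF3, and SMARCC1, against 25.01% of 11220 genes. The UTRs of SS18, DPF2, DPF3, and SMARCC1, at 2101, 2503, 10263, and 2940 bases, are longer than the median of 1610, and that of ACTL6A is shorter. An 8mer was present in 3 of them, SS18, DPF3, and SMARCC1, and in 5.96% of all genes. The 8mers of SS18 (chr18:26018328-26018353, minus strand, base 11) and SMARCC1 (chr3:47587026-47587051, minus strand, base 1173) are shown, since both genes passed the filter on reads.
SS18, miR-1 8mer: aaaagtacttACATTCCAgtagccag
SMARCC1, miR-1 8mer: catttctgagatctcACATTCCAtct
For miR-122, DPF3 and SMARCA4 had a 7mer or 8mer, against 26.4% of 11221 genes. The SMARCA4 match lies in the 1695-base UTR of an alternative transcript. The 457-base UTR of the representative SMARCA4 transcript lacks it but has an 8mer of miR-1.

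FPKM values were divided by the authors by a length close to the whole gene with its introns, so that levels of different genes are compared here as reads per kb of merged exons, scaled to library depth as in RPKM (exon RPKM). Whether reads within introns were counted is not known. If they were, exon RPKM is too high for genes with long introns, and the order of genes given below may differ. SMARCC1, for example, spans 196838 bases with 7624 bases of merged exons. The reads behind each value were recovered, and the 95% intervals given with levels, shares, and ratios are exact and cover counting error only. They say nothing about the spread between cultures, which 1 library per condition cannot show. The depth to which the values were scaled was 5887055 to 9452232 reads per library.

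ACTL6A had the highest exon RPKM of the 10 genes in every library, and SMARCC1 the second highest. In the control library, ACTL6A stood at 27.8 (25.7 to 30.0), SMARCC1 at 22.8 (21.5 to 24.1), PHF10 at 17.3 (16.0 to 18.6), and SMARCA4 at 14.0 (13.2 to 14.7). DPF2 followed at 11.8 (10.9 to 12.7) and SS18 at 9.78 (8.84 to 10.8), and none of these neighbors overlapped in their intervals. SS18L1 at 6.60 and DPF1 at 6.04 were within counting error of each other. DPF3, at 0.294 (0.205 to 0.409), and ACTL6B, at 0.0635 (0.00161 to 0.354), were far below the rest and overlapped.

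The order was nearly the same in the other libraries. PHF10 and SMARCA4 exchanged rank 3 with miR-124, where they stood at 13.3 and 16.4, and SS18L1 and DPF1 exchanged rank 7 with miR-122 and miR-124. The plot of levels by gene and library shows each gene at nearly the same place in all 4 libraries.

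**Figure D1:**
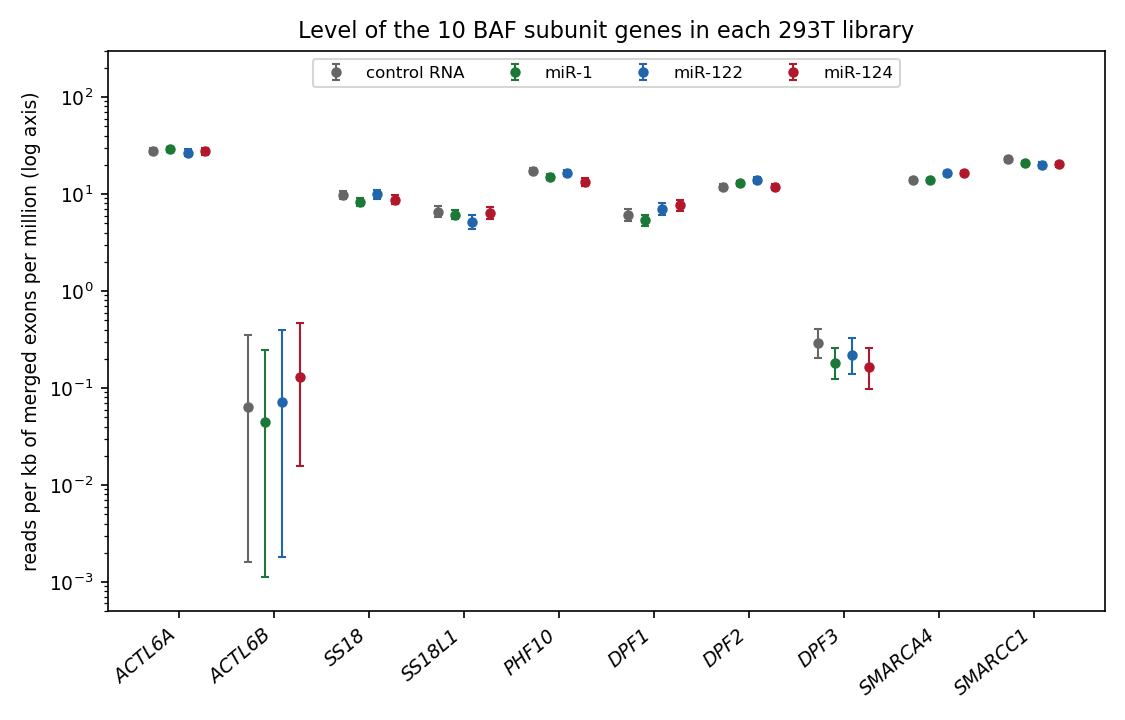
Exon RPKM (log axis) of the 10 BAF subunit genes in the control RNA, miR-1, miR-122, and miR-124 libraries, 1 point per library, with exact 95% intervals of the count. ACTL6A is highest in all 4 libraries, and ACTL6B and DPF3 lie below 0.5 in all of them.

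A ratio of FPKM between a mimic and the control of at least 1.3, or of at most its reciprocal of 0.769, was counted as a change. Genes needed an FPKM above 0.004 in both libraries and a mean of at least 50 recovered reads. ACTL6B and DPF3 did not reach 50 reads, so 8 of the 10 members were tested in each comparison. No p-value can be had with 1 library per condition.

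None of the 8 tested members changed by 1.3-fold with any of the 3 mimics. In bulk RNA, a change in every cell and a larger one in the transfected cells only cannot be told apart. With miR-1, 0 were lower and 0 higher, where 14.4% of 12761 genes were lower and 5.01% higher. With miR-122, 0 were lower and 0 higher, against 9.17% and 5.45% of 12761 genes. With miR-124, 0 were lower and 0 higher, against 12.0% and 7.44% of 12759 genes.

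The median log2 ratio of the 8 members was -0.11 under miR-1, -0.02 under miR-122, and -0.03 under miR-124. Over all genes tested it was -0.05, -0.02, and -0.05. The members' ratios ran from 0.852 to 1.09 under miR-1, from 0.785 to 1.18 under miR-122, and from 0.770 to 1.26 under miR-124. The interval left out 1 for 3 members under miR-1, 4 under miR-122, and 4 under miR-124, while it did so for 40.5%, 30.1%, and 38.7% of all genes tested.

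ACTL6A (ENSG00000136518, chr3:179562886-179588407, plus strand) encodes an actin-related subunit that pairs with actin in the complex. Its FPKM was 3.99 in the control library, 4.14 under miR-1, 3.82 under miR-122, and 3.94 under miR-124, from 675, 998, 574, and 651 reads. Its ratio was 1.04 (0.939 to 1.14) under miR-1, 0.957 (0.855 to 1.07) under miR-122, and 0.988 (0.886 to 1.10) under miR-124. All 3 intervals held 1. The miR-124 ratio was at percentile 54.2 of all genes tested. These are RNA values, and protein was not measured in these libraries.

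Of 3481 genes with a mean of at least 500 reads, those whose 3 log2 ratios were closest to those of ACTL6A were RAB21, MARS1, and PTDSS1, at Euclidean distances of 0.0244, 0.0283, and 0.0292. RAB21 had ratios of 1.03, 0.970, and 0.979 in the same order. As 134 genes lay within 0.1 of ACTL6A, its pattern over the 4 libraries is a common one.

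ACTL6B (ENSG00000077080, chr7:100643097-100656448, minus strand), the actin-related subunit of neurons, was counted with 1 read in the control, miR-1, and miR-122 libraries and with 2 reads in the miR-124 library. These counts allow no ratio. ACTL6A thus took 99.9%, 99.9%, 99.8%, and 99.7% of the reads of the pair in the 4 libraries, in the order used above. No exchange of ACTL6A for ACTL6B was detectable at this depth.

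SS18 (ENSG00000141380, chr18:26016253-26091217, minus strand) and SS18L1 (ENSG00000184402, chr20:62143769-62182514, plus strand) are alternative subunits, the latter a calcium-responsive coactivator in neurons. SS18 had an FPKM of 0.801 in the control library, 0.683 under miR-1, 0.818 under miR-122, and 0.718 under miR-124, from 398, 484, 361, and 348 reads. The lowest value was that of miR-1, at a ratio of 0.852 (0.745 to 0.976). SS18 holds the miR-1 8mer printed above and a 7mer-A1 at base 90. Its ratio was 1.02 (0.883 to 1.18) with miR-122 and 0.896 (0.774 to 1.04) with miR-124.

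SS18L1 had an FPKM of 0.878 in the control library, 0.818 under miR-1, 0.689 under miR-122, and 0.852 under miR-124, from 225, 299, 157, and 213 reads. It was below the control in all 3 mimics, and the interval left out 1 with miR-122, at a ratio of 0.785 (0.636 to 0.967). Its ratio was 0.931 (0.781 to 1.11) with miR-1 and 0.970 (0.800 to 1.18) with miR-124. It held no miR-122 match of 6 or more letters.

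Both genes were thus expressed in these cells, the neuronal form included. SS18 took 63.9% (59.97 to 67.7) of the reads of the pair in the control library. Its share was 61.8% (58.3 to 65.2) under miR-1, 69.7% (65.5 to 73.6) under miR-122, and 62.0% (57.9 to 66.1) under miR-124. The control interval overlapped those of all 3 mimics.

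PHF10, DPF1, DPF2, and DPF3 form the BAF45 family, whose members carry PHD fingers, and of which PHF10 is known for its role in the proliferation of neural progenitors. PHF10 (ENSG00000130024, chr6:169703902-169725566, minus strand) had an FPKM of 4.77 in the control library, 4.13 under miR-1, 4.56 under miR-122, and 3.67 under miR-124, from 684, 846, 581, and 514 reads. It was below the control in all 3 mimics and lowest with miR-124. The ratio was 0.867 (0.783 to 0.960) under miR-1, 0.956 (0.854 to 1.07) under miR-122, and 0.770 (0.685 to 0.865) under miR-124, the last just short of the limit of 0.769.

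The PHF10 ratio with miR-124 was at percentile 12.0 of all genes tested. Against the mean of the other 2 mimics it was 0.845. PHF10 holds the miR-124 7mer-m8 printed above, and genes whose best site was a 7mer had a median log2 ratio of -0.13 with miR-124, against 0.02 for genes with no site. With the adjustment described next, these medians were -0.06 and -0.05. Its UTR has a GC content of 33.1%, and its ratio adjusted for UTR GC content, UTR length, gene span, and reads was 0.871. The part of the site and that of the GC content in the PHF10 value were not tested.

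DPF2 (ENSG00000133884, chr11:65333843-65354262, plus strand), a widely expressed reader of acylated histone H3, had an FPKM of 5.53 in the control library, 6.05 under miR-1, 6.52 under miR-122, and 5.57 under miR-124, from 714, 1115, 748, and 702 reads. It was the only tested member above the control in all 3 mimics. Its ratio was 1.09 (0.995 to 1.20) under miR-1, 1.18 (1.06 to 1.31) under miR-122, and 1.01 (0.906 to 1.12) under miR-124. DPF2 holds a 7mer-A1 of miR-1 at base 592, and its miR-1 ratio was not below 1.

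DPF1 (ENSG00000011332, chr19:38211006-38229714, minus strand), a BAF45 form of neurons, had an FPKM of 1.55 in the control library, 1.37 under miR-1, 1.798 under miR-122, and 1.96 under miR-124, from 192, 243, 198, and 237 reads. The miR-124 value was the highest. The ratio was 0.887 (0.731 to 1.08) under miR-1, 1.16 (0.947 to 1.42) under miR-122, and 1.26 (1.04 to 1.54) under miR-124. This was the highest miR-124 ratio of the tested members, at percentile 90.5 of all genes tested.

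DPF1 has the 3′ UTR with the highest GC content of the members, 63.6%, and no match of 6 or more letters to any of the 3 miRNAs. Adjusted for UTR GC content, UTR length, gene span, and reads, its miR-124 ratio was 1.00. The part of the GC content in the DPF1 value was not tested.

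DPF3 (ENSG00000205683, chr14:72609034-72894101, minus strand), a BAF45 form of neurons and of heart and skeletal muscle, was counted with 35 reads in the control library, 31 under miR-1, 23 under miR-122, and 19 under miR-124. Its FPKM was 0.0192, 0.0119, 0.0142, and 0.0107, below the control in every mimic. DPF3 was left out of the counts above as too thinly covered. Its ratio was 0.621 (0.370 to 1.04) under miR-1, 0.739 (0.417 to 1.29) under miR-122, and 0.556 (0.301 to 0.999) under miR-124, and only the last interval left out 1.

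The shares of the 4 BAF45 genes in their joint reads show the same values relative to each other. PHF10 took 42.1% (39.7 to 44.5) in the control library, 37.9% (35.8 to 39.9) under miR-1, 37.5% (35.1 to 39.9) under miR-122, and 34.9% (32.5 to 37.4) under miR-124. DPF1 took 11.8% (10.3 to 13.5), 10.9% (9.61 to 12.2), 12.8% (11.2 to 14.5), and 16.1% (14.3 to 18.1) in the same order. With miR-124, the interval of each of these genes lay apart from its control interval, lower for PHF10 and higher for DPF1. DPF2 took 43.9% (41.5 to 46.4), 49.9% (47.8 to 52.0), 48.3% (45.7 to 50.8), and 47.7% (45.1 to 50.3). With miR-1, the DPF2 interval also lay apart from its control interval, on the higher side. These shares were not adjusted for UTR GC content, UTR length, gene span, or reads. The share of 1 gene also moves when the others of the family do, and no such shares were taken for other families. For comparison, the ratio interval left out 1 for 40.5% of all genes tested with miR-1 and 38.7% with miR-124.

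PHF10 and DPF2 together held 86.0% (84.2 to 87.7) of the BAF45 reads in the control library. They held 87.7% (86.3 to 89.1) under miR-1, 85.7% (83.9 to 87.4) under miR-122, and 82.6% (80.6 to 84.5) under miR-124. The miR-124 share was the lowest, but its interval overlapped that of the control narrowly. DPF3 never took more than 2.15%.

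**Figure D2:**
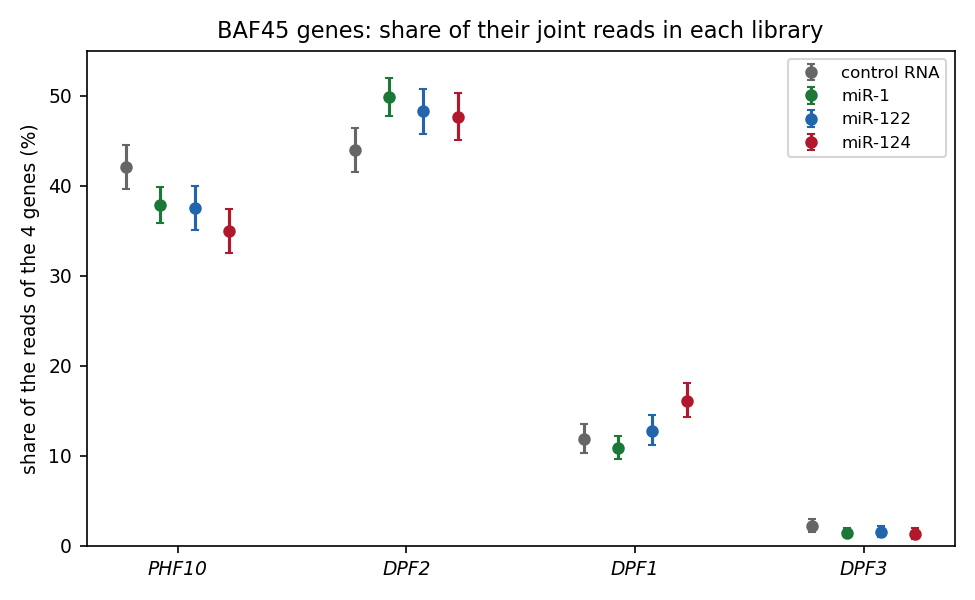
Share of PHF10, DPF2, DPF1, and DPF3 in the joint reads of the 4 BAF45 genes (%), 1 point per library with exact 95% intervals. PHF10 runs from 42.1% in the control library to 34.9% with miR-124, and DPF1 from 11.8% to 16.1%.

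SMARCA4 (ENSG00000127616, chr19:10960932-11079426, plus strand) is an ATPase that drives the complex. Its FPKM was 2.08 in the control library, 2.07 under miR-1, 2.43 under miR-122, and 2.45 under miR-124, from 1441, 2040, 1493, and 1653 reads. The control and miR-1 values were close, and those of miR-122 and miR-124 were higher. The ratio was 0.992 (0.927 to 1.06) under miR-1, 1.17 (1.08 to 1.25) under miR-122, and 1.18 (1.09 to 1.26) under miR-124. Its UTR has a GC content of 55.3%, and its adjusted ratio was 1.14 with miR-122 and 1.07 with miR-124. A part of the GC content in these values was not tested.

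SMARCC1 (ENSG00000173473, chr3:47585269-47782106, minus strand) is a scaffold subunit on which the core is assembled. Its FPKM was 0.882 in the control library, 0.813 under miR-1, 0.772 under miR-122, and 0.784 under miR-124, from 1150, 1513, 894, and 998 reads. It was below the control in every mimic, and each interval left out 1. The ratio was 0.922 (0.853 to 0.996) under miR-1, 0.875 (0.801 to 0.955) under miR-122, and 0.889 (0.816 to 0.969) under miR-124. Adjusted for UTR GC content, UTR length, gene span, and reads, it was closer to 1, at 0.992, 0.935, and 0.963 in the same order. SMARCC1 has an 8mer and 7mers of miR-1, 7mers of miR-124, and a 6mer of miR-122. Its unadjusted ratio was lowest with miR-122, but the intervals of all mimics overlapped.

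Genes with seed matches had lower median ratios with their own mimic than genes without, by a smaller margin after the adjustment. The median log2 ratio of tested genes was -0.26 with an 8mer and -0.16 with a 7mer as best match of miR-1, against 0.00 without any match. It was -0.15 and -0.06 for miR-122, against -0.00, and -0.17 and -0.13 for miR-124, against 0.02. After the adjustment for GC content, UTR length, gene span, and reads, the miR-124 medians were -0.08, -0.06, and -0.05. Those of miR-1 were then -0.15, -0.09, and -0.03, and those of miR-122 were -0.11, -0.02, and -0.01.

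The log2 ratio with miR-124 followed the GC content of the 3′ UTR across genes. Pearson's r was 0.607 over 11221 genes, compared with 0.239 for miR-1 and 0.338 for miR-122. Genes are not independent replicates, and all values of a comparison share the same libraries. Over the 8 tested members, r was 0.815 with miR-124, 0.636 with miR-122, and 0.0524 with miR-1. With the adjusted ratios it was 0.160, 0.397, and -0.216 in the same order. The adjustment itself takes out a trend across genes with UTR GC content, so a lower r was built in. The adjusted values are thus no test of the GC content, and with 8 genes all of these values are descriptive only. ACTL6A, with the lowest UTR GC content of the members (29.0%), had an adjusted miR-124 ratio of 1.06.

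**Figure D3:**
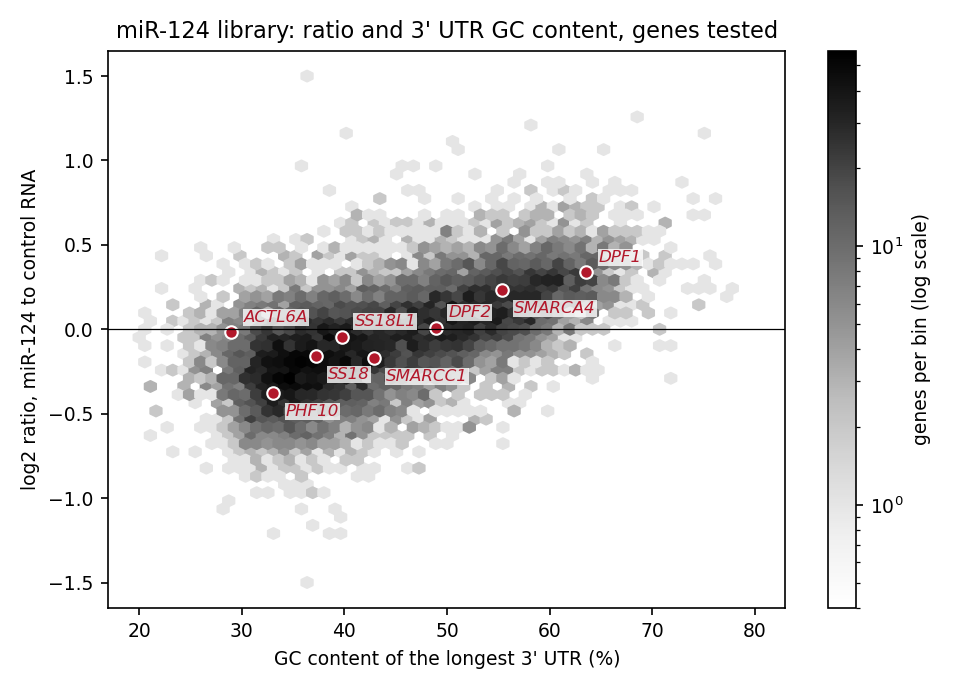
Log2 ratio of the miR-124 to the control RNA library against the GC content of the longest 3′ UTR (%), for the tested genes (grey hexagons, darker for more genes, values beyond 1.5 drawn at the edge) and the 8 tested members (red). PHF10, at 33.1% GC, is lowest among the members and DPF1, at 63.6%, highest.

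Of 20 other subunits of BAF and the related PBAF and ncBAF complexes, 18 passed the filters. This list was fixed with earlier results of these data known, so its counts are not independent evidence. With miR-1, 6 of 18 were lower by at least 1.3-fold and 0 higher, against 14.4% and 5.01% of all genes tested. The list's median log2 ratio was -0.13, against -0.05 over all genes tested. Those lower with miR-1 were ARID1A (0.562, 0.513 to 0.615), the DNA-binding subunit of canonical BAF, its paralog ARID1B (0.725, 0.634 to 0.828), and the PBAF subunits ARID2 (0.614, 0.513 to 0.735) and PBRM1 (0.742, 0.648 to 0.850). The others were the ATPase SMARCA2 (0.756, 0.663 to 0.862), which can take the place of SMARCA4, and SMARCD2 (0.739, 0.686 to 0.797). Among these 6, ARID2 alone had a 7mer or 8mer of miR-1 in its longest 3′ UTR, against 25.01% of 11220 genes. The part of seed matches in these ratios was not tested.

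With the adjustment for UTR GC content, UTR length, gene span, and reads, 3 of the 6 remained lower by 1.3-fold with miR-1, at ratios of 0.570 for ARID1A, 0.663 for SMARCD2, and 0.708 for ARID2. In the adjusted ratios, 9.91% of all genes were lower by 1.3-fold. With miR-122, 0 of 18 were lower and 0 higher, against 9.17% and 5.45% of all genes, and the median was 0.07, against -0.02. With miR-124, 1 of 18 was lower and 1 higher, against 12.0% and 7.44% of all genes, and the median was -0.06, against -0.05. ARID2 was lower, at 0.736 (0.608 to 0.889), and BICRA, a subunit of ncBAF, was higher, at 1.46 (1.26 to 1.69). Neither passed 1.3-fold after the adjustment, at ratios of 0.881 and 1.29. Of the 4 with most reads, SMARCD2 and ARID1A were among those above, while SMARCB1, with ratios of 0.849, 1.22, and 1.28, and SMARCC2, with 0.948, 1.03, and 1.18 in the order of the mimics, did not pass 1.3-fold. BICRAL and BCL11B were too thinly covered.

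Of 8 neuron markers, the neurofilament gene NEFL stood apart, at an exon RPKM of 43.3 to 52.6. STMN2 was listed at 0 in every library, SNAP25, ELAVL4, and TUBB3 were at an exon RPKM of at most 0.160, RBFOX3 was at 0.463 to 0.7504, SYP at 0.561 to 0.801, and MAP2 at 0.768 to 1.05. Of the progenitor markers, SOX2 was at 15.5 to 18.4, NES at 9.63 to 13.0, and PAX6 at 1.45 to 1.89 on the same scale. The epithelial keratins KRT8 and KRT18 were at 203 to 226 and 128 to 151.

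Among genes known to control the switch, REST had an FPKM of 0.816 in the control library, 0.651 under miR-1, 0.566 under miR-122, and 0.655 under miR-124. It was below the control in every mimic and passed 1.3-fold with miR-122, at a ratio of 0.694 (0.577 to 0.831). Its corepressor RCOR1 was at 0.270, 0.222, 0.224, and 0.243, and the phosphatases CTDSP1 and CTDSP2 were at ratios of 1.08 and 0.878 with miR-124. The splicing repressor PTBP1, a known miR-124 target, was at a ratio of 1.05 (1.01 to 1.10) with miR-124 and 0.677 (0.647 to 0.709) with miR-1, and its neuronal paralog PTBP2 at 0.862 and 1.31. Adjusted for UTR GC content, UTR length, gene span, and reads, PTBP1 was at 0.908 with miR-124 and 0.613 with miR-1. The adjusted ratios of PTBP2 were 1.06 and 1.55. REST with miR-122 was at 0.773 after the adjustment and no longer passed 1.3-fold.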

How the data were processed

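Per the submitters' processing notes, bases were called with CASAVA 1.8 and reads aligned to GRCh38 with HISAT2 2.0.0. The deposited values are FPKM per Ensembl gene, calculated by the authors from single-end reads, without pooling. Which program and annotation counted the reads is not given in the sources used here.

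Reads were recovered from the FPKM values with the read divisor of each library (5887055 to 9452232) and the length that gave whole reads in all 4 libraries within 0.02 of a read, for 99.6% of 32358 genes above 0. Of 9157 lengths fitted to genes with at least 200 reads, 92.6% were within 10% of the gene span, and a read count can be off by a whole factor where the span itself gave no whole reads. Ratios were taken without a pseudocount, with exact Clopper-Pearson 95% intervals. Genes were matched to GENCODE release 44 (57532 of 58243). The adjusted ratio subtracts a cubic trend fitted to reads, gene span, and the length and GC content of the 3′ UTR. All members, other subunits past 1.3-fold or with the 4 highest read counts, the 6 regulators, and the 3 genes most like ACTL6A were named. The members and lists were chosen with earlier results of these data known. Tried as alternatives were a pseudocount (0.1 or 1), a reference made of the other 2 mimics, centring, the adjustment, a fold of 1.5, no filter on reads, and 3′ UTRs of 1 representative transcript. The steps were tested on simulated data. Scripts ran on matplotlib 3.10.9, pandas 2.3.3, scipy 1.17.1, and numpy 2.4.6 under Python 3.11.15.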

Additional observations from a re-analysis of the deposited data

How the results depend on the processing

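No paired analysis was possible because there is 1 library per condition, and for the same reason no replicate could be left out. Of the 24 ratios of the 8 tested members, all 24 moved by less than their counting interval with a pseudocount of 0.1, with a pseudocount of 1, and with centring on the median. With the adjustment, 3 moved further, PHF10, DPF1, and SMARCA4 with miR-124 (0.871, 1.00, and 1.07). Against the other 2 mimics as reference, 9 moved further. A ratio changed sides of 1 for 6 of the 24 under that reference (SS18L1, PHF10, and SMARCC1 for miR-1, PHF10 for miR-122, SS18L1 and DPF2 for miR-124), for 7 with the adjustment, and for 3 with centring. PHF10 went from 0.956 to 1.17 for miR-122, and DPF2 from 1.01 to 0.886 for miR-124, under the other reference.

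The count of members past 1.3-fold was 0 in each comparison and direction, and it changed as follows. With the other mimics as reference, 1 (DPF1) was lower with miR-1, against 8.97% of all genes. Centring gave 1 higher with miR-124, also DPF1, against 9.80% of all genes. Without the filter on reads, ACTL6B and DPF3 entered, and 2 were lower with miR-1, 1 was lower with miR-122 and also 1 for miR-124, where 1 was higher. Of all genes, 26.2%, 18.83%, and 20.65% were then lower in the order of the mimics, and 16.52% were higher with miR-124.

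The alternatives for the other subunits were chosen after seeing the data. The 6 lower with miR-1 became 3 with a pseudocount of 0.1, 2 with a pseudocount of 1, 3 with the adjustment, and 2 at a fold of 1.5. The share of all genes, 14.38% in the main count, became 8.565%, 2.19%, 9.91%, and 5.05% in the same order. With miR-122, 2 were lower without the filter, and 1 was higher with the other mimics as reference, with centring, and with the adjustment (main count 0). Of all genes, 18.83% were lower without the filter, and 4.84%, 6.40%, and 4.09% were higher in the other settings. With miR-124, the 1 lower became 0 with either pseudocount, the other reference, the adjustment, and a fold of 1.5. In the same order, 6.16%, 1.02%, 4.74%, 5.71%, and 3.25% of all genes were lower. The 1 higher became 0 with a pseudocount of 1, the adjustment, and a fold of 1.5, and 2 with centring. In these settings, 3.025%, 2.69%, 1.94%, and 9.80% of all genes were higher. Members with a miR-122 site went from 2 to 1 in representative transcripts.

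Depth limited ACTL6B, DPF3, BICRAL, and BCL11B, whose ratios rest on few reads. Cultures, transfection, and library cannot be told apart from the mimic.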
